A study of Mus musculus with 12 samples.

Results

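The genes described here are the nuclear genes of the respiratory chain, taken as every row of the deposited mouse expression table whose name begins with Nduf, Uqcr, Atp5, Cox4, Cox5, Cox6, Cox7 or Cox8 or equals Sdha, Sdhb, Sdhc or Sdhd, without Ndufa4l2. A mean value of at least 1 over the 12 libraries was also asked, and all 89 rows that matched by name met it, out of 17637 genes in the table and 14779 that reached this minimum. The 2 members with the lowest means were Ndufaf6 at 5.57 and Atp5s at 6.36, and no row lay below the minimum. By role, 43 members belong to complex I, 4 to complex II, 8 to complex III, 17 to complex IV and 17 to complex V. Ndufa4 was counted with complex IV, where its protein resides in spite of its name. Atp5s and Atp5sl were counted with complex V by name alone.

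The respiratory chain lies in the inner mitochondrial membrane. Complexes I and II pass electrons from NADH and succinate to ubiquinone, complex III passes them to cytochrome c, and complex IV passes them to oxygen. Complexes I, III and IV pump protons, and complex V, the ATP synthase, lets the protons back to make ATP. Most subunits are encoded in the nucleus and the rest in the mitochondrial genome, and heart muscle is among the tissues that hold the most of these complexes.

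The study used wild-type embryos of CD1, an outbred mouse stock, at stage E16.5, and compared the outer tissue of 2 regions of the heart. The artery group held mesothelium with the tissue under it from the base of the great arteries, and the ventricle group held epicardium with subepicardium. Each of 6 litters gave 1 pool of each tissue, so each group had 6 libraries of polyA RNA, and p-values measure the spread between litter pools. Both groups were unmanipulated, and the peeled layers are mixtures in which other cells of the vessel wall and heart remain. In such bulk samples, fewer cells of a type and less RNA per cell cannot be told apart.

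Whole reads recovered from the table came to 6.77 M in artery 1, 7.97 M in artery 6 and 16.45 to 22.1 M in the other 10 libraries. All 14 epicardial and mesothelial markers were detected, with a summed level of 1785 to 3659 in artery and 3006 to 5672 in ventricle. Artery 1 stood apart. In it, 2057 genes of the table were at 0 reads, against 495 to 795 in each other library, and 28 of those genes had a mean of at least 10 in the other libraries. No member was at 0 in any library, and the lowest member count was 10 reads, in artery 1. Sequencing lanes named in the labels were spread over both groups, apart from lane 4, which held artery 6 alone.

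Of the 89 genes, 88 had a negative difference (55.2% of all genes tested), that is, a lower mean log2 level in artery than in ventricle. On the log2(value + 1) scale, 44 were lower in artery, 1 was higher and 44 did not pass an adjusted p of 0.05 in limma. Over all genes tested, 11.8% were lower and 12.2% were higher, while 49.4% of the members were lower. The median difference was -0.53 over the members and -0.04 over all genes tested. With the litter as a block, 51 members were lower and 1 was higher, against backgrounds of 12.6% and 11.9%. The member that went the other way was Cox4i2, an isoform of a complex IV subunit.

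**Figure D1:**
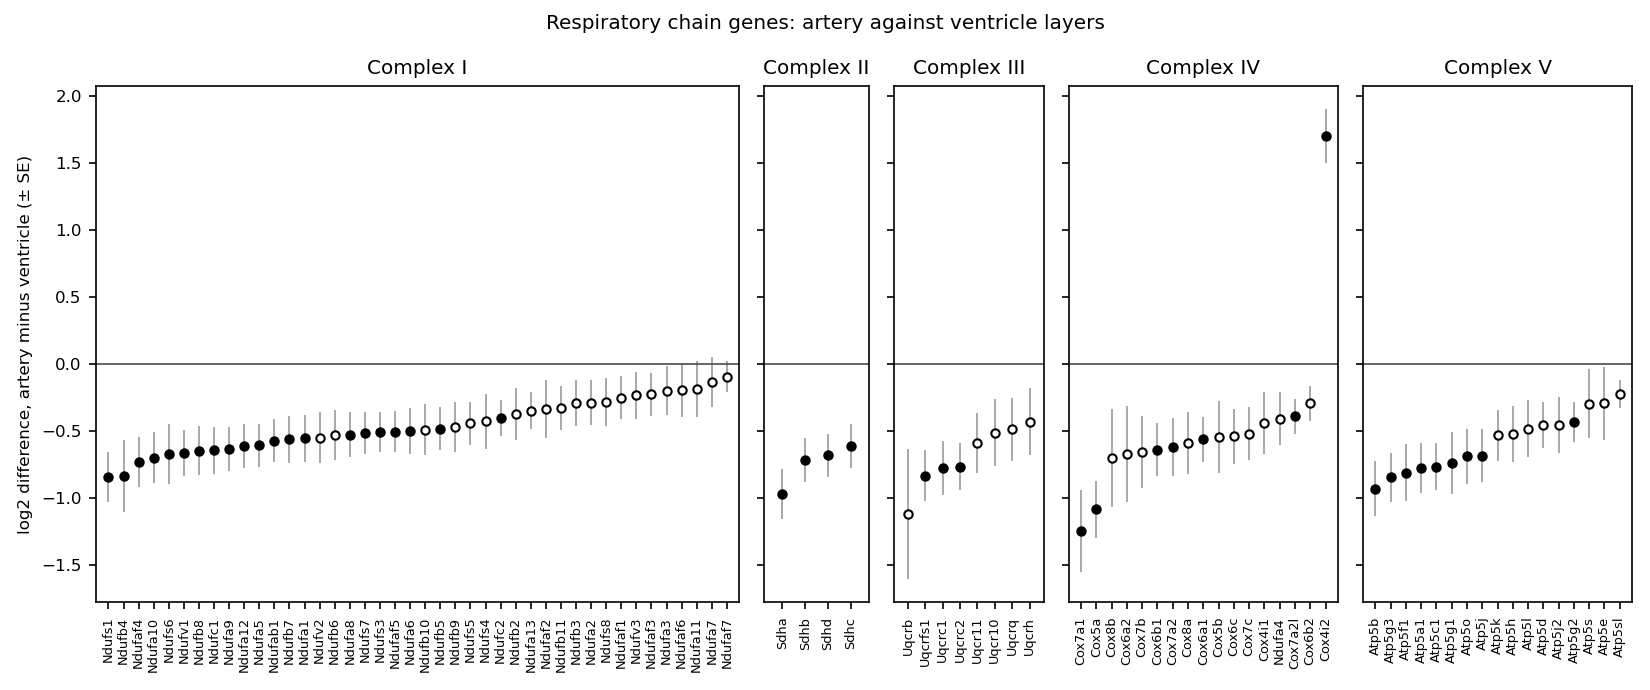
Difference in log2(value + 1) level between artery and ventricle for 88 of the 89 genes, by complex, with 1 standard error from limma either side. Filled points passed an adjusted p of 0.05. Every point lies below 0 except Cox4i2 at 1.70, and the lowest is Cox7a1 at -1.25.

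The size of the difference was uneven between litters. In litters 2, 3 and 4, 88 of the 89 genes were lower in artery than in the ventricle library of the same litter. The number was 84 in litter 5, 68 in litter 6 and 50 in litter 1, and the median difference ran from -1.07 in litter 2 to -0.07 in litter 1. Litters 1 and 6 were also the only ones whose artery and ventricle libraries ran in different lanes. Their artery libraries were the shallow ones (6.77 M and 7.97 M reads), so litter, lane and depth cannot be told apart here. In all 6 litters together, 38 members were lower in every litter (13.9% of all genes tested were). In 5 or 6 litters 77 were lower, a count for which the share over all genes was not taken. The ranges of the groups did not overlap for 7 genes lower in artery (Ndufs1, Sdha, Sdhb, Uqcrc2, Cox5a, Atp5b and Atp5a1) and for Cox4i2, which was higher. Over all genes tested, 4.25% did not overlap in the lower direction and 7.61% in the higher. The 7 are 7.87% of the members, so separation of the groups was closer to the background than the share of calls was.

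The number of calls also depended on single litters and libraries. Without litter 3, 13 members were lower, with a background of 5.7% of genes called lower. Without litter 2 and without litter 5 the number was 21 each time (backgrounds 8.41% and 6.76%). Among single libraries, leaving out artery 3 or artery 5 gave 25 and 29 (8.74% and 9.1%), and leaving out ventricle 2, ventricle 3 or ventricle 6 gave 26, 29 and 27 (9.32%, 9.08% and 8.95%). Leaving out artery 1 or artery 6, the shallow libraries, gave 61 and 63 instead (14.5% and 12.4%). In each of these the members' share lay above the background, and so it did in edgeR on the recovered reads (33 lower, background 9.9%), in DESeq2 (46, background 13.3%), in limma-voom (41, background 11.7%), with every library thinned to the shallowest (42, background 10.9%) and with lane as a covariate (63, background 11.7%). Without artery 1 and artery 4 together, 46 were lower (background 17.8%). Over the 18 omissions of 1 litter or 1 library, the calls of 14 genes held each time, among them Ndufs1, Sdha, Sdhb, Sdhd, Uqcrfs1, Uqcrc2, Cox5a, Cox7a1, Cox4i2, Atp5a1, Atp5b, Atp5c1 and Atp5g3. Within lane 2, with 3 artery and 4 ventricle libraries, 18 members were lower (background 2.32%) with a median of -0.69. Within lane 1, with 2 libraries a group, 1 member was lower (background 0.683%) with a median of -0.62.

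Complex I takes electrons from NADH. Of its 43 genes, 22 were lower in artery and 21 did not pass, with a median of -0.50, and 26 were lower with the litter block. Without litter 3, 2 of the 43 were lower (background 5.7%). Among the core subunits, which carry out the electron transfer, 5 of 7 were lower. Ndufs1, the large iron-sulfur subunit of the NADH-oxidising module (chr1:63143596-63176833, GRCm38), had a lowest, median and highest value of 82.3, 123 and 156 in artery and 158, 216 and 313 in ventricle. No artery library reached the lowest ventricle library, and the log2 difference was -0.84 ± 0.19 (SE; adjusted p = 0.00503, limma; lower in 6 of 6 litters). Ndufv1, the flavoprotein that binds NADH, had 95.9, 130 and 178 in artery and 166, 193 and 287 in ventricle. Its difference was -0.67 ± 0.17 (adjusted p = 0.0122, limma), and over the 18 omissions it missed the threshold only without litter 3 (0.0619). The top artery library of Ndufv1 lay above the lowest ventricle library, although the gene was lower in 6 of 6 litters. Ndufv2 and Ndufs8, also core subunits, had differences of -0.55 and -0.28 and did not pass.

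Accessory subunits surround the core. Of these, 15 of 29 were lower, with a median of -0.49, and 0 without litter 3. The differences ran from -0.84 for Ndufb4 to -0.14 for Ndufa7. Ndufb4, of the membrane arm, had low values, with 7.47, 12.1 and 30.1 in artery and 20.9, 22.3 and 34.2 in ventricle. The artery library at 30.1 lay above all ventricle libraries but one. Its call (-0.84 ± 0.27, adjusted p = 0.0341, limma) was lost in 12 of the 18 omissions and in edgeR (0.0799). The assembly factors build the complex without being part of it. Their median of -0.25 was the smallest among the roles of the complex, with 2 of 7 lower and a range of -0.73 to -0.10. Over all 89 genes, the log2 difference moved with log level (r = -0.55), larger falls going with higher levels. Role and level were not told apart. Ndufaf4 had 10.8, 18.8 and 28.2 in artery and 24.5, 30.7 and 41.5 in ventricle, a difference of -0.73 ± 0.19 (adjusted p = 0.0115, limma). That call was lost without litter 3 (0.0597). Ndufaf6, the member with the lowest mean value, had a difference of -0.20 ± 0.20 and did not pass.

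Complex II, which is also succinate dehydrogenase of the citric acid cycle, is encoded by nuclear genes alone. All 4 of its genes were lower in artery, in 6 of 6 litters each, with and without the litter block. Sdha, the flavoprotein that oxidises succinate (chr13:74322254-74350280), had 162, 242 and 296 in artery and 340, 453 and 678 in ventricle. The groups did not overlap, and the difference was -0.97 ± 0.19 (adjusted p = 0.0020, limma). Sdhb, the iron-sulfur subunit, had 82.6, 110 and 145 in artery and 146, 174 and 277 in ventricle. These groups touched without overlapping, with a difference of -0.72 ± 0.17 (adjusted p = 0.00706, limma). The membrane anchors Sdhd and Sdhc differed by -0.68 ± 0.16 (adjusted p = 0.00801, limma) and -0.61 ± 0.16 (0.0150). Sdhd had 80.2, 115 and 164 in artery against 151, 177 and 252 in ventricle, and Sdhc had 78.3, 103 and 139 against 132, 153 and 232. Both overlapped at the edge, and the call for Sdhc was lost without litter 3 (0.0617) and without litter 5. The summed level of the complex was 420 to 707 in artery and 798 to 1439 in ventricle.

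Complex III passes electrons from ubiquinol to cytochrome c. Of its 8 genes, 3 were lower and 5 did not pass, with a median of -0.68, and the litter block gave the same number. The 3 encode the Rieske iron-sulfur protein and the large core proteins. Uqcrfs1, the Rieske protein, had 52.8, 76.6 and 120 in artery and 106, 132 and 210 in ventricle, a difference of -0.84 ± 0.19 (adjusted p = 0.0062, limma). Uqcrc2 had 126, 175 and 221 in artery and 233, 276 and 447 in ventricle, with no overlap, and differed by -0.77 ± 0.17 (adjusted p = 0.00595, limma). Uqcrc1 had 124, 204 and 263 against 253, 310 and 489, a difference of -0.78 ± 0.20 (adjusted p = 0.0127, limma) that missed the threshold without litter 3 (0.0654). The small subunit Uqcrb, singled out after its values were seen, had 10.8 in artery 1 and 73.5 to 167 in the other artery libraries, and 118, 145 and 232 in ventricle. Its difference of -1.12 ± 0.48 did not pass (adjusted p = 0.111, limma), and without artery 1 it did (0.0449). Without artery 1, 7 of the 8 genes were lower (background 14.5%).

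**Figure D2:**
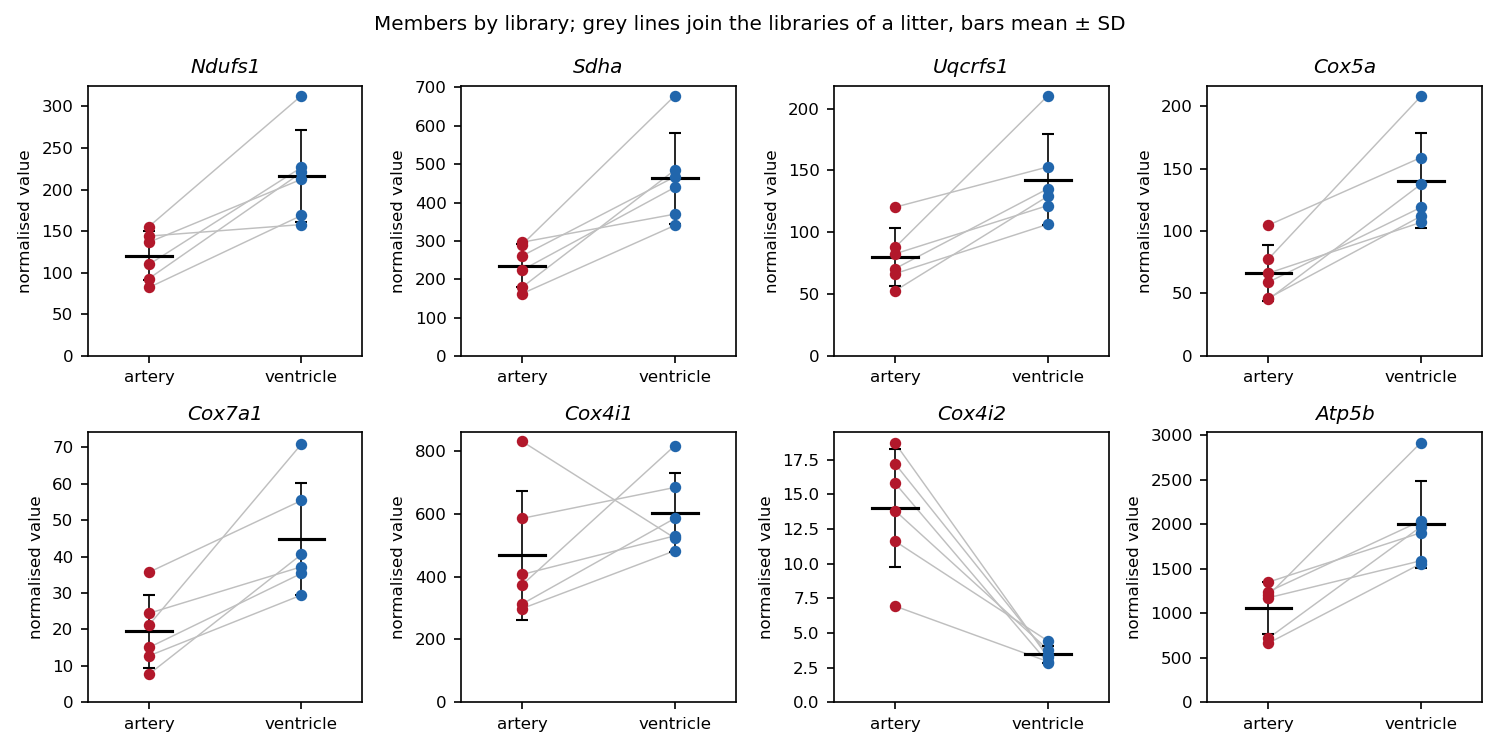
Normalised value in each library for 8 of the genes, with lines joining the artery and ventricle pools of a litter and bars for mean ± SD (n = 6 a group). Cox4i2 is above every ventricle library in all artery libraries, Ndufs1, Sdha, Cox5a and Atp5b are below, and Cox4i1 is high in artery 1 at 830.

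Complex IV, cytochrome c oxidase, has its catalytic core encoded by mitochondrial genes. The nuclear genes add subunits around it, several of which exist as a general form and a tissue-restricted form. Of the 17 genes, 6 were lower, 1 was higher and 10 did not pass, and with the litter block 8 were lower and 1 higher. Cox5a, a subunit on the matrix side (chr9:57521274-57532426), had 45.3, 62.7 and 105 in artery and 107, 128 and 208 in ventricle. No artery library reached a ventricle one, and the difference was -1.09 ± 0.21 (adjusted p = 0.00208, limma). The other 3 of the 11 general subunits that passed were Cox6b1 (-0.64), Cox7a2 (-0.62) and Cox6a1 (-0.56), whose calls were lost in 11, 13 and 8 of the 18 omissions. With the litter block, 7 of the 11 were lower. Cox7a2l, which links complexes III and IV, had a difference of -0.39 ± 0.13 (adjusted p = 0.0415, limma). That call was lost in 14 omissions and with the litter block.

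Cox4i1, the general form of the large regulatory subunit, did not pass. It had 298, 390 and 830 in artery and 482, 557 and 816 in ventricle, a difference of -0.44 ± 0.23 (adjusted p = 0.191, limma). The value of 830 was in artery 1, and without that library the adjusted p was 0.0191. Cox5b and Cox8a had differences of -0.55 ± 0.27 and -0.59 ± 0.23 and did not pass either (adjusted p = 0.162 and 0.0792, limma), with 0.0219 and 0.00263 without artery 1.

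Among the 5 tissue-restricted forms, 1 was lower, 1 was higher and 3 did not pass. Cox7a1, the form of heart and skeletal muscle (chr7:30184144-30186078), had 7.73, 18.1 and 35.7 in artery and 29.4, 38.9 and 70.8 in ventricle. Only artery 6 lay inside the ventricle range, and the difference of -1.25 ± 0.31 (adjusted p = 0.00934, limma; 6 of 6 litters) was the lowest of all members. The other muscle forms, Cox6a2 and Cox8b, had differences of -0.67 ± 0.36 and -0.71 ± 0.37 and did not pass (adjusted p = 0.198 and 0.186, limma). For Cox6a2 the artery values were 27.4, 49.8 and 147 and the ventricle values 56.0, 81.3 and 146. Artery 1 held that highest artery value, and without it both genes passed (adjusted p = 0.0183 and 0.0484, limma). Cox6b2, a form known from testis, had 14.3, 17.1 and 23.0 in artery and 17.7, 22.7 and 24.1 in ventricle and did not pass (-0.29 ± 0.13).

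Cox4i2 is the alternative form of the Cox4i1 subunit, known from lung and from the response of cells to low oxygen (chr2:152754173-152765037). Its values in artery 1 to 6 were 17.2, 13.8, 18.7, 6.94, 11.6 and 15.8, and in ventricle 1 to 6 they were 3.44, 3.81, 3.26, 2.95, 4.43 and 2.88. Every artery library lay above every ventricle library, and the lowest count behind a value was 48 reads. The difference was 1.70 ± 0.20 (adjusted p = 3.49e-05, limma). It held in each of the 18 omissions and was the only higher member in every setting tried. Per kilobase of transcript, the mean level of Cox4i2 was 19.2 in artery and 4.74 in ventricle, and that of Cox4i1 was 769 and 992, so that Cox4i1 remained the more abundant form in both tissues.

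The balance between isoforms was compared as the log2 ratio of their values in each library, for 7 pairs, by an exact two-sided permutation test over the 924 assignments of the 12 libraries. The ratio of Cox4i2 to Cox4i1 ran from -5.51 to -4.00 in artery and from -7.46 to -6.61 in ventricle. It was higher in artery by 2.14 ± 0.26 (SE; exact p = 0.00216, adjusted 0.00758) and in 6 of 6 litters. The ratio of the muscle form Cox7a1 to the general Cox7a2 ran from -3.22 to -2.14 in artery and from -2.07 to -1.74 in ventricle. It was lower in artery by 0.63 on the log2 scale (a difference of -0.63 ± 0.18; exact p = 0.00216, adjusted 0.00758), again in 6 of 6 litters. Both p-values are the smallest that these assignments can give. With the libraries paired by litter, sign flips over the 6 litters gave p = 0.03125 (exact) for both ratios, the smallest possible, and 0.109 after adjustment over the 7 pairs, so neither passed in that form.

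The other ratios did not pass. For the remaining muscle forms, Cox6a2 to Cox6a1 differed by -0.11 ± 0.27 (exact p = 0.697) and Cox8b to Cox8a by -0.11 ± 0.22 (exact p = 0.619). For Cox6b2 to Cox6b1 the difference was 0.35 ± 0.20 (exact p = 0.108, adjusted 0.189). The 3 genes Atp5g1, Atp5g2 and Atp5g3 encode the same mature c subunit of complex V behind different import sequences. Atp5g1 to Atp5g2 differed by -0.30 ± 0.13 (exact p = 0.0325, adjusted 0.0758; lower in 5 of 6 litters), and Atp5g1 to Atp5g3 by 0.11 ± 0.17 (exact p = 0.944).

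**Figure D3:**
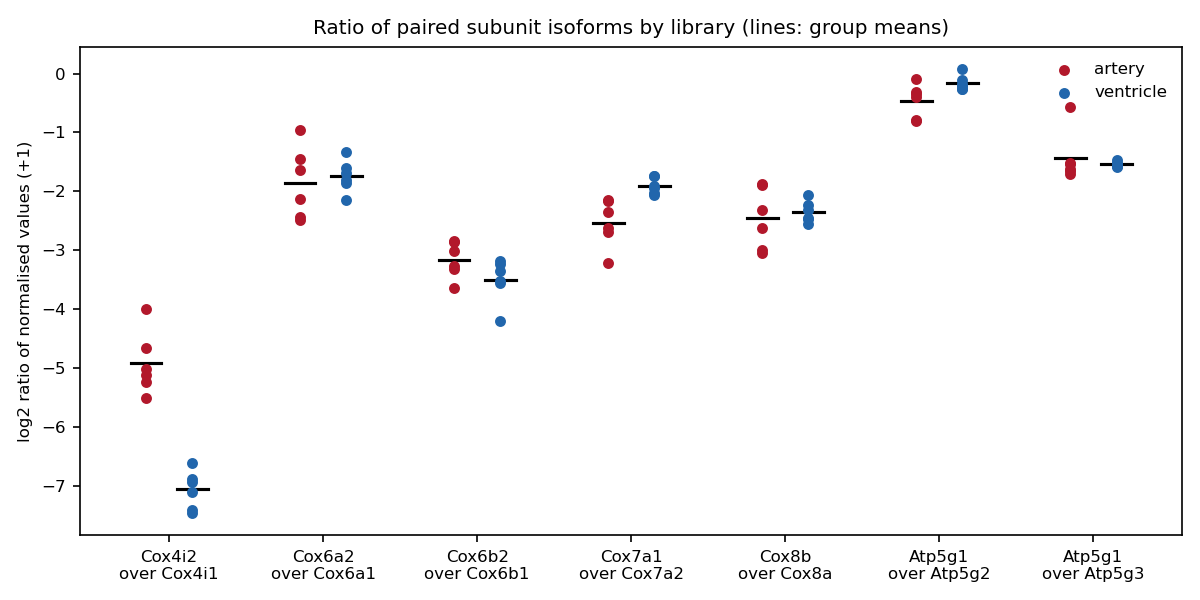
Log2 ratio of the normalised values (+1) of paired isoforms in each library, with lines for the group means (n = 6 a group). The groups separate for Cox4i2 over Cox4i1 and for Cox7a1 over Cox7a2. Artery 1 stands off in Atp5g1 over Atp5g3, at -0.58.

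Complex V makes ATP. Of its 17 genes, 9 were lower and 8 did not pass, with a median of -0.53, and 10 were lower with the litter block. Atp5b and Atp5a1 encode the beta and alpha subunits that form the catalytic head, and had the highest levels per kilobase of all members in both tissues. Atp5b (chr10:128083273-128090391) had 666, 1188 and 1350 in artery and 1558, 1938 and 2916 in ventricle. Atp5a1 had 569.6, 939 and 1015 in artery and 1163, 1387 and 1992 in ventricle. Neither overlapped between the groups, with differences of -0.93 ± 0.21 and -0.78 ± 0.18 (adjusted p = 0.00505 and 0.00772, limma). Atp5c1, the central stalk that turns inside the head, was also lower (-0.77), whereas Atp5d and Atp5e, of the same stalk, had -0.46 and -0.30 and did not pass.

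In the membrane ring and the outer stalk of complex V, 6 of 10 genes were lower. The c subunit gene Atp5g3 had 208, 262 and 426 in artery and 379, 477 and 737 in ventricle. One artery library lay inside the ventricle range, and the difference was -0.84 ± 0.18 (adjusted p = 0.00439, limma). Atp5g1 and Atp5g2 were lower by smaller amounts, at -0.74 ± 0.23 and -0.44 ± 0.15 (adjusted p = 0.0320 and 0.0481, limma), and their calls were lost in 10 and 14 of the 18 omissions. Atp5f1, the stalk subunit b, had 118, 192 and 338 in artery and 284, 325 and 516 in ventricle, a difference of -0.81 ± 0.22 (adjusted p = 0.0144, limma) that missed the threshold without litter 3 (0.0606). Neither Atp5s (-0.30 ± 0.26) nor Atp5sl (-0.22), the members placed here by name, passed.

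Promoter windows of the members were also read for motif letters, without a test of any link to the difference. RefSeq windows of 300 bases (250 before the transcription start and 50 after it, build GRCm38.p6) were used. They were matched by gene identifier, or failing that by symbol, for 72 of the 89 genes, giving 77 windows out of 32851. The windows shown are those of 3 genes lower in artery that held such matches, from complexes III, IV and II, and of the muscle form Cox7a1, which held none of the capitalised motifs. Capitals mark exact matches on either strand to the motifs of NRF1 (GCGCATGC, or GCATGCGC on the other strand, which overlap in Uqcrc1 and Cox6a1), ETS factors (CCGGAAG, or CTTCCGG on the other strand) and the oestrogen-related receptors (TCAAGGTCA, or TGACCTTGA).
Uqcrc1, chr9:108936398-108936697, plus strand: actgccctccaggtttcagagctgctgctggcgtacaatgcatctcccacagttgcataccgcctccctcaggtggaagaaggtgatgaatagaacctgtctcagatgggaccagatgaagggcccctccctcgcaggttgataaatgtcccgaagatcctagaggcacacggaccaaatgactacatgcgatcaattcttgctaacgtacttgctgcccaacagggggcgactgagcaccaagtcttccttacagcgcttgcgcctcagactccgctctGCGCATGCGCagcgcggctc
Cox6a1, chr5:115348909-115349208, minus strand: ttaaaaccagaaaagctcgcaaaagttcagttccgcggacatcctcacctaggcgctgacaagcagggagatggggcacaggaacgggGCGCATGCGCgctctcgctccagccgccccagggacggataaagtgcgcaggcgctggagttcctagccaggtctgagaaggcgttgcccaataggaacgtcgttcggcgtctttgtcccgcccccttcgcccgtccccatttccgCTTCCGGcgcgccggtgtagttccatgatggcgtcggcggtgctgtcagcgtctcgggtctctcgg
Sdhd, chr9:50603800-50604099, minus strand: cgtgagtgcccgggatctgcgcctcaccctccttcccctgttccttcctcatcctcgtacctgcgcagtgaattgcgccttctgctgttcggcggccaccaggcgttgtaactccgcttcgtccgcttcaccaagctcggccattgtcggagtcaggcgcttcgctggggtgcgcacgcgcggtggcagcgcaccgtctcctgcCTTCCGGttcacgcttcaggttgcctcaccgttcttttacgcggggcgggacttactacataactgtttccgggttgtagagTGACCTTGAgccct
Cox7a1, chr7:30183921-30184220, plus strand: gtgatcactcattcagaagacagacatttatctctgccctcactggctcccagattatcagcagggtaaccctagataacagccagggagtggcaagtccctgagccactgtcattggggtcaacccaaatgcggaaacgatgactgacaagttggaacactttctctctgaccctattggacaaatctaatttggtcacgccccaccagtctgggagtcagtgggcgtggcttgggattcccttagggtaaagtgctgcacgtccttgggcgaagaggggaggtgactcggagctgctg

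The NRF1 letters, a shorter core taken up after counts of a longer form had been seen, were in 12 of the 77 member windows (15.6%) and in 2.71% of all windows. ETS letters were in 17 (22.1%, all windows 8.86%), YY1 letters (AAGATGGC) in 9 (11.7%, all windows 2.75%) and the receptor letters in 2 (2.60%, all windows 0.423%). Other motifs searched were nearer to the share of all windows: SP1 letters (GGGCGG) in 41.6% against 35.7%, RBPJ letters (TGGGAA) in 20.8% against 25.6%, and the HIF core (ACGTG) in 23.4% against 19.6%. The MEF2 motif was in none of the member windows and in 0.110% of all windows. Of the 41 windows of members lower in artery, 8 held NRF1 letters (19.5%), 7 held ETS letters (17.1%) and 6 held YY1 letters (14.6%). SP1 letters were in 21 (51.2%). The ETS share lay below that of all 77 member windows, and those of NRF1, YY1 and SP1 lay above. Members that did not pass held such letters too, among them Atp5k and Ndufa11 (NRF1) and Cox8a (ETS). Whether any motif goes with being lower was not tested. A match is a description of these letters and not of binding. The receptor motif was in the windows of Sdhd and Atp5g3, both lower in artery.

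Related genes outside the name rule were read from lists drawn up with earlier results of these data known. Of 5 other genes tied to the chain or to ATP synthase, 3 (Cyc1, Cycs and Atpif1) were lower in artery (background 11.8%). The other 2, Usmg5 and 2010107E04Rik, did not pass (limma), and the median of the 5 was -0.69. With the litter block, 5 were lower (background 12.6%). Cyc1, the cytochrome subunit of complex III, was 124 ± 35.9 in artery and 230 ± 68.6 in ventricle (SD, n = 6), a difference of -0.90 ± 0.21 (adjusted p = 0.00690, limma). Cycs, cytochrome c itself, was 55.1 ± 24.0 and 95.4 ± 29.1, a difference of -0.83 ± 0.23 (adjusted p = 0.020, limma). Of 37 other assembly factors tested, 8 were lower (background 11.8%) and 29 did not pass, with a median of -0.29. Cox17, a copper chaperone for complex IV, had a difference of -0.66 ± 0.15 (adjusted p = 0.00659, limma).

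Of 19 regulators of mitochondrial genes, 6 were lower and 1 was higher (backgrounds 11.8% and 12.2%). Ppargc1a, a coactivator of these genes, had 15.1, 23.3 and 41.1 in artery and 36.5, 46.5 and 76.9 in ventricle, a difference of -0.98 ± 0.24 (adjusted p = 0.00877, limma). Esrra, the oestrogen-related receptor alpha, had 24.7, 35.5 and 43.3 in artery and 46.6, 54.5 and 80.2 in ventricle, with no overlap, and a difference of -0.70 ± 0.14 (adjusted p = 0.00287, limma). Polg2, a subunit of the mitochondrial DNA polymerase, was higher in artery by 0.49 ± 0.14 (adjusted p = 0.0187, limma). The other 12 did not pass. Among them, Nrf1 had a difference of -0.08, Tfam of -0.21 and Pprc1 of 0.08 (adjusted p = 0.459, 0.357 and 0.713, limma).

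The 13 protein-coding genes of the mitochondrial genome, which supply the remaining subunits, gave 0 calls in either direction in limma, edgeR, DESeq2 and limma-voom, and 0 of them had an unadjusted p under 0.05 in limma. Their summed level was 6336 in artery 1, 26609 to 30950 in the other artery libraries and 24459 to 36323 in ventricle. Without artery 1, the mean was 29191 ± 1665 in artery (SD, n = 5) and 29319 ± 4614 in ventricle (n = 6), and the median difference was 0.01, against -0.50 with it, with 1 of the 13 genes higher in limma and 3 at an unadjusted p under 0.05. The nuclear members had a median of -0.60 without artery 1. In artery 1 the genes mt-Co2, mt-Co3 and mt-Nd4l are listed at 0 reads. The difference between the nuclear and the mitochondrial set was not tested, and the RNA was selected by its polyA tail.

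Within artery 1, the deviation of the 89 genes from the mean of the other artery libraries moved with the GC content of their transcripts (Pearson's r = 0.61, Spearman's rho = 0.65, over genes of 1 library, which share its depth). Uqcrb had the lowest deviation, at -3.10 on the log2 scale, and Cox6a2 the highest, at 1.76. After a correction for GC content and length in each library, 53 members were lower (background 14.7%), or 65 with the litter block (background 16.3%), and Cox4i2 was higher.

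**Figure D4:**
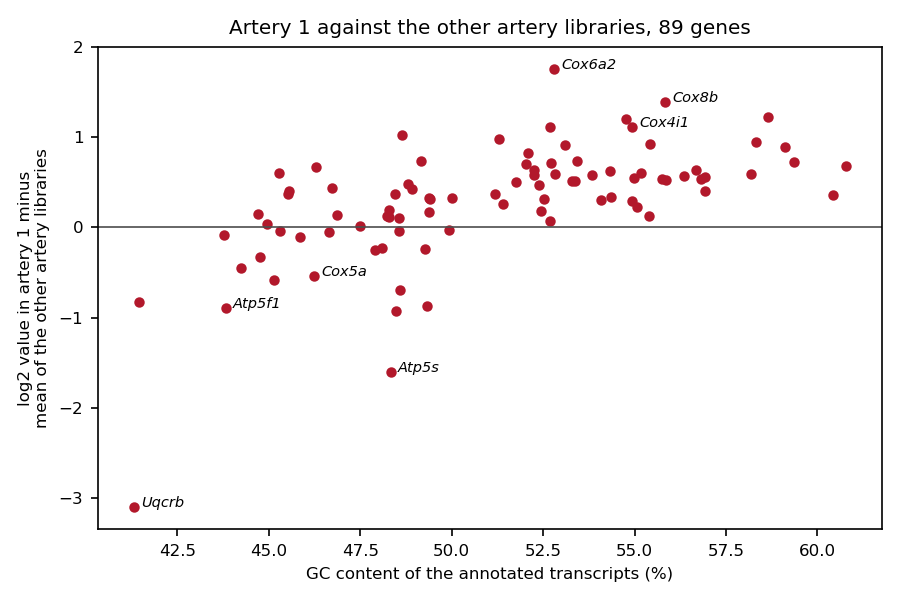
Log2 level in artery 1 minus the mean log2 level of the other artery libraries, against the GC content (%) of the annotated transcripts, 1 point for each of the 89 genes. Genes poor in GC lie low and genes rich in GC lie high, from Uqcrb at -3.10 to Cox6a2 at 1.76.

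The summed level of the 89 genes was 10803 ± 2638 in artery and 16575 ± 3664 in ventricle (SD, n = 6), lower in artery in 6 of 6 litters. As a share of the reads this was 1.06% ± 0.27 and 1.63% ± 0.33. Of 29 heart muscle markers, 26 had a negative difference (55.2% of all genes tested). In limma, 17 were lower in artery (background 11.8%) and 12 did not pass, and all had reads in both groups. Myl4, Myl7 and Nppa, genes known from atrial muscle, had differences of 0.73, 0.15 and 1.16 and did not pass. Artery 1 held the highest value of each, at 897, 1021 and 461. The summed level of the markers was 7403 to 24871 in artery and 18760 to 48132 in ventricle. Ventricle 2 was the highest library and ventricle 4 the lowest of the ventricle libraries for both sums. Among the artery libraries, artery 3 was the lowest for both. The highest was artery 1 for the markers (24871) and artery 6 for the 89 genes (14490). The part of muscle content in the difference was not tested.

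Litter by litter, the artery sum of the muscle markers was 92.8% of the ventricle sum in litter 1, where that of the 89 genes was 92.4%. In litter 4 the marker sum was 84.4% and that of the 89 genes 69.1%. In litters 3 and 5 the muscle markers were at 25.6% and 34.5%, and the 89 genes at 48.9% and 64.1%. In litters 2 and 6 the muscle markers were at 41.3% and 59.7%, and the 89 genes at 45.7% and 80.8%.

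**Figure D5:**
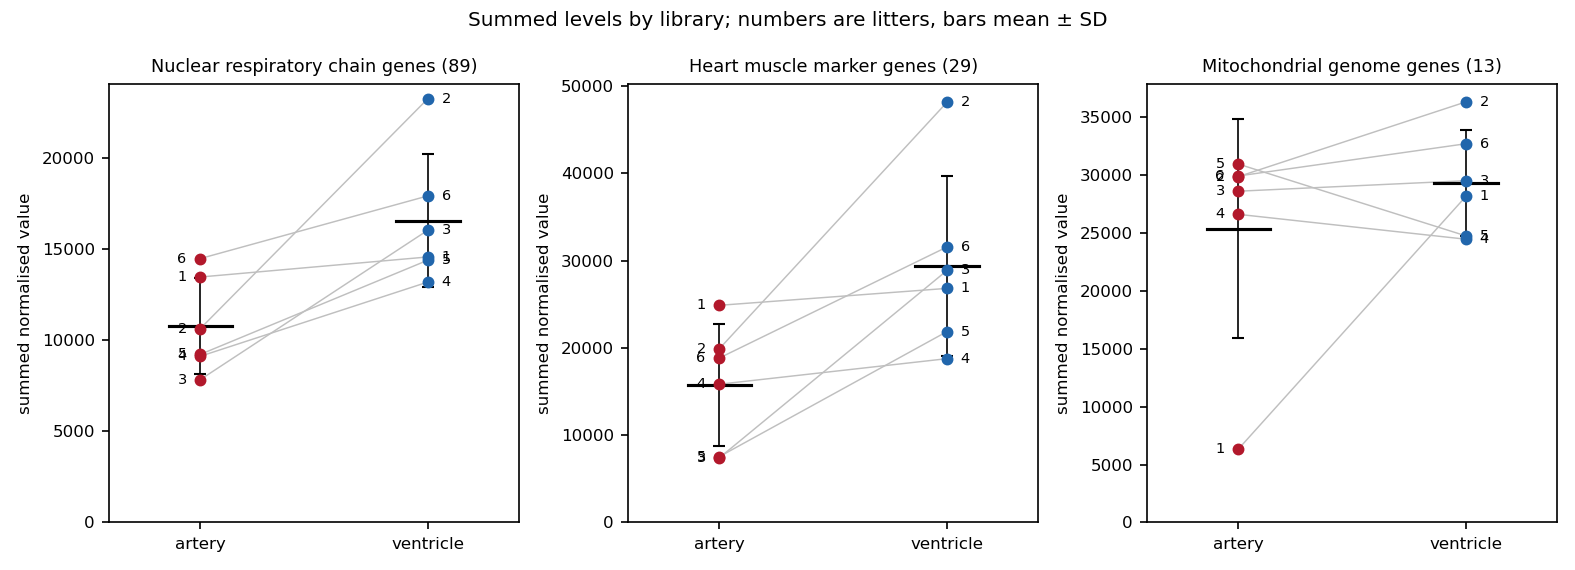
Summed normalised value in each library of the 89 nuclear genes, of 29 heart muscle markers and of the 13 mitochondrial genome genes, with lines joining the pools of a litter and bars for mean ± SD (n = 6 a group). The nuclear and the muscle sums are lower in artery in every litter, and the mitochondrial sum is low in artery 1 alone, at 6336.

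Markers of other cell types were also read, against the backgrounds of 11.8% lower and 12.2% higher. Smooth muscle markers were higher in artery for 7 of 9 genes, with sums of 2093 to 4072 against 804 to 1307. Red blood cell genes were higher for 3 of 8, with sums of 3223 to 18832 against 1853 to 3905, and artery 6 held the highest sum. All 14 epicardial and mesothelial markers were lower in artery, and 2 of 10 endothelial markers were lower. Of 5 brown fat cell markers in the table, 1 (Ebf2) was higher, with sums of 51.4 to 68.1 against 40.9 to 60.0, and 0 with the litter block, where Ebf2 had an adjusted p of 0.0597 in limma. Of 6 skeletal muscle markers tested, 2 were higher, with Myod1 at 0 reads in ventricle, and of 8 macrophage markers 1 was lower and 1 higher. Their part in the difference of the 89 genes was not tested.

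Exons of 31 members overlap those of another annotated gene, among them Ndufs1, Cox5a, Uqcrc2, Atp5a1 and Cox4i1. The labels do not state a strand for the counting, so reads of such partners may be mixed, and reads of near-identical copies may be divided. Of the 58 members with no such overlap, 29 were lower in artery (11.8% of all genes tested were). The share over all genes without such overlap was not taken. Sdha, Sdhb, Cox7a1, Cox4i2 and Atp5b are among the 58 members.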

How the data were processed

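RNA-seq was run on 12 libraries, 6 of each tissue. Layers were peeled and pooled by litter, and polyA libraries were read as single 50 base reads, per the labels' protocols. CASAVA 1.8.2, cutadapt 1.3, RSEM 1.2.3 and the build GRCm38 are named, per the submitters' processing notes. What normalized the values is not given in the sources used here. In the deposited table stands a normalized signal (CPM of a scaled library size) made by the authors, and 100% of its 211644 values equal whole reads plus 0.5 within 0.02 reads. The mean minimum of 1 left 14779 genes, and 2858 lay below it.

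Differences in log2(value + 1) were tested with limma 3.58.1 in R 4.3.3 (trended, robust, two-sided) without a block, adjusted by Benjamini and Hochberg over all genes tested at 0.05. The plan also held edgeR for raw counts; the unit called for limma, and edgeR 4.0.16, DESeq2 1.42.0 and limma-voom were run on recovered reads as alternatives, with other normalizations, filters, lanes and omissions. Litter pairs the libraries, since the labels say both tissues came from the same litter. The mean correlation of group-centred values was 0.215 within litters (lowest -0.01) and -0.04 between them. Centring each group ties the second value to the first, so the second is not a separate comparison. The pool of the own litter was the closest match in 3 litters and not in the others. Replicates were not duplicates (chi-square of at least 10.6 for each degree of freedom). On simulated data with 200 of 14735 genes changed between artery and ventricle, limma recovered 24% of 1.5-fold and 92% of 2-fold changes, with 13 false among 171 calls. The simulated counts were independent between genes, with a dispersion of 0.05 and no litter, lane or GC effects. These rates therefore need not hold for the real libraries.

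Coordinates are from GENCODE M21 of GRCm38. Members and gene lists were chosen with earlier results of these data known. Named members were the complex II genes, core subunits, isoform pairs, the 3 largest called differences per complex and direction, and the lowest levels; Uqcrb, Ndufv2, Ndufs8, Cox7a2l, Atp5c1, Atp5d, Atp5e and Atp5sl were added after their values were seen. Of the named members, 1 is not reported here.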

Additional observations from a re-analysis of the deposited data

Results flagged for a closer look

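Of 88 sets of 6 libraries examined, 10 had 1 library far from the rest (by Dixon's gap over range). About 1 in 20 independent sets would be flagged, but these sets share the same 12 libraries and related genes. The number flagged therefore cannot be held against that rate. In 7 of the 10 flagged sets ventricle 2 was the highest ventricle library. It held Atp5b at 2916 (next 2037), Cox5b at 326 (next 197), Ndufb4 at 34.2 (next 25.6), Sdhc at 232 (next 169), Uqcrc1 at 489 (next 337), Uqcrc2 at 447 (next 302) and a complex II sum of 1439 (next 1033). Ventricle 2 was also the highest in heart muscle markers, and without it 26 members were lower in artery. Its log2 ratio of Cox6b2 to Cox6b1 was the lowest in ventricle, at -4.20 (next -3.56). Artery 1 was the lowest artery library for Atp5s, at 1.52 (next 5.74), and the highest for the log2 ratio of Atp5g1 to Atp5g3, at -0.58 (next -1.52).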

How the results depend on the processing

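Cox4i2 was the 1 higher member in every setting. With the replicate block (litter), 51 members were lower, and the ratios of Cox4i2 to Cox4i1 (2.14) and Cox7a1 to Cox7a2 (-0.63), tested by sign flips over 6 litters, reached their smallest p of 0.03125, which is 0.109 after adjustment; the block moved no count of complexes I to V by over 1.5 times, but took the general complex IV subunits from 4 to 7. edgeR gave 33 lower members (background 9.9%), 3 of them in complex IV, DESeq2 46 (background 13.3%) and limma-voom 41 (11.7%). With the GC and length correction and the block, complex III had 7 lower and complex IV 13. With lane as a covariate complex IV had 11. Without artery 1 and artery 4, complex III had 5 and complex IV 10, Atp5g1 to Atp5g2 passed at -0.42, Atp5g1 to Atp5g3 turned to -0.083 and Atp5s turned to 0.019. Within lane 1, with 2 libraries a group, 1 member was lower (complex IV 1, complexes I, II, III and V 0) and Ndufaf6 turned to 0.020. Within lane 2, 18 were lower (complex I 3, complex II 2, complex V 4), Cox4i2 to Cox4i1 (1.99) and Cox7a1 to Cox7a2 (-0.47) were at the smallest p that 35 assignments give (0.0286, exact; 0.0667 adjusted), so missing the threshold there says nothing about stability, and Atp5g1 to Atp5g3 turned to -0.10.

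Leaving out 1 litter or library gave 13 to 63 lower members, with backgrounds from 5.7% (without litter 3) to 14.5% (without artery 1). Complex I had 2 to 31, complex II 3 to 4 and complex III 2 to 7. For complexes IV and V the ranges were 2 to 12 and 4 to 13. The 2 of 43 in complex I, found without litter 3, were not above the background there. Ratios ranged from 1.95 to 2.30 for Cox4i2 to Cox4i1, -0.69 to -0.50 for Cox7a1 to Cox7a2, -0.39 to -0.24 for Atp5g1 to Atp5g2, -0.050 to 0.16 for Atp5g1 to Atp5g3, -0.26 to 0.0033 for Cox6a2 to Cox6a1, 0.23 to 0.44 for Cox6b2 to Cox6b1 and -0.20 to -0.0025 for Cox8b to Cox8a. Fewer libraries enter these fits; beyond that the cause was not tested. For single named genes, 1065 of 1216 values over 32 genes kept their direction and side of the threshold, 126 missed it, 23 came to pass it and 2 reversed. With every library thinned to the shallowest, 42 members were lower (background 10.9%).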
